A study of Mus musculus with 6 samples.

Results

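The genes described are 34 of the 18828 in the deposited mouse table, chosen by name for their place in mitochondrial fuel oxidation: 16 encode enzymes of pyruvate entry and the tricarboxylic acid (TCA) cycle, 17 encode enzymes and carriers of fatty acid beta-oxidation, and 1, Ppard, encodes a nuclear receptor of fatty acid metabolism. All 34 were present in the table and all passed the filter on low counts, so none was dropped. RNA sequencing was carried out on T cells from the spleen of FVB mice, a wild-type inbred strain. The cells were activated with beads against CD3 and CD28 and received 50 µM urolithin A, a gut microbial product of plant ellagitannins, in 3 libraries, or the solvent DMSO, in the other 3, for 48 h from the time of activation. Every library in both groups came from bead-activated cells. The labels do not say whether libraries a, b and c of a group came from separate mice, so the spread between them, and every p-value, may be technical, and they give neither age nor sex of the mice. How the T cells were purified was not stated.

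Pyruvate enters mitochondria and is turned into acetyl-CoA by the pyruvate dehydrogenase complex, and the TCA cycle oxidises that acetyl-CoA while feeding electrons to the respiratory chain and carbon to biosynthesis. Beta-oxidation reaches the same acetyl-CoA from fatty acids, which are carried in as carnitine esters, shortened by repeated dehydrogenation, hydration, dehydrogenation and thiolysis, and relieved of their electrons through the electron transfer flavoprotein. Freshly activated T cells rely strongly on glycolysis and glutamine, and beta-oxidation is best known in T cells from memory and regulatory subsets.

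Promoter sequences are shown for 4 genes whose RNA differed between the groups and for the start region shared by Hadha and Hadhb, whose RNAs were each higher in every treated library than in any control, so that the motifs in these windows can be read directly. They come from RefSeq on the GRCm38.p6 build, which listed 31 of the 34 genes. Each single-gene window runs from 250 bases before the annotated start to 50 bases after it, 5′ to 3′ on the gene's own strand. Capitals mark matches, on either strand, to 5 motifs: the NRF1 core GCATGCGC, the ETS core CCGGAAG, the nuclear receptor half-site AAGGTCA, the E-box CACGTG and the CCAAT box CCAAT. The 2 NRF1 matches in Etfdh overlap, because the core nearly equals its own reverse complement.
Idh3b, chr2:130284402-130284701, minus strand: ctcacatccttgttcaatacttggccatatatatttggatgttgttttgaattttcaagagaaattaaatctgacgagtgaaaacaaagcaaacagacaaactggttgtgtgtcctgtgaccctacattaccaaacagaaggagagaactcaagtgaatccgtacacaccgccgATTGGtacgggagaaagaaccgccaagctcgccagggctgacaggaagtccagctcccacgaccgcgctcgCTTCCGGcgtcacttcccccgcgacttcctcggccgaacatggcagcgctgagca
Eci2, chr13:34994095-34994394, minus strand: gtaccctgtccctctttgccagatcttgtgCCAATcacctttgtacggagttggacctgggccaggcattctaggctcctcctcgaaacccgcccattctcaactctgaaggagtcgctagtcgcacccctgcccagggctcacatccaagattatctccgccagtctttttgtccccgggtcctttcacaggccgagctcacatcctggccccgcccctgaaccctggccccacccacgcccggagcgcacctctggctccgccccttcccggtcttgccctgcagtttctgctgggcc
Etfdh, chr3:79628718-79629017, minus strand: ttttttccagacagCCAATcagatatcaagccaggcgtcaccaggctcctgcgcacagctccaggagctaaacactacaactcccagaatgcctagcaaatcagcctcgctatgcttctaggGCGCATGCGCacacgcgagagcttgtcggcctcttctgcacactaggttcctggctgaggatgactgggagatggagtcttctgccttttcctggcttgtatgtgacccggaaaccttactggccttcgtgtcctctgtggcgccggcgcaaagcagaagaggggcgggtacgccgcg
Acadm, chr3:153944594-153944893, minus strand: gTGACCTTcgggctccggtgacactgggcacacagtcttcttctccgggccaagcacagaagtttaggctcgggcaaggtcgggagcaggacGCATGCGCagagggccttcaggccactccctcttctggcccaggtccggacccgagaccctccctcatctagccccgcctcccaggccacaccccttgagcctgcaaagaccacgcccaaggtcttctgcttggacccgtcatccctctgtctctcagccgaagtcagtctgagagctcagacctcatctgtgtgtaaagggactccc
Hadha and Hadhb, chr5:30155003-30155230, plus strand: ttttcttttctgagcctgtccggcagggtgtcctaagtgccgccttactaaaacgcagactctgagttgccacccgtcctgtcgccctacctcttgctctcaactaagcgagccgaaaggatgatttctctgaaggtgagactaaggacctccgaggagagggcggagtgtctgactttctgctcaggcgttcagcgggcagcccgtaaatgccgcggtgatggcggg

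Counted from the annotated start, the ETS match in Idh3b begins at position -5 and the CCAAT box at position -76. Etfdh and Acadm both hold an NRF1 core, beginning at positions -128 and -158, and Acadm also holds a nuclear receptor half-site at the far end of its window. Ogdh has 6 listed windows at alternative starts, and each of the other listed genes has 1, so a gene is counted below where any of its windows holds the motif, as it is for all tested genes. Among the listed genes, the NRF1 core occurred in 3 of 15 beta-oxidation promoters (Acadm, Etfa and Etfdh) and in 1 of 15 pyruvate and TCA promoters (Ogdh), against 6.09% of the 10082 tested genes with a listed promoter. The ETS core occurred in 2 of 15 beta-oxidation promoters (Cpt2 and Slc25a20) and 3 of 15 pyruvate and TCA promoters (Idh3b, Idh3g and Dlst), against 20.8%. CCAAT boxes were in 6 of 15 and 8 of 15, against 43.2%. The half-site was in 1 of each group (Acadm and Ogdh), against 3.95%, and the E-box was in Ogdh alone, against 11.9%. The counts for Ogdh rest on its more downstream starts: the NRF1 core is in 2 of its 6 windows, the half-site in 1 and the E-box in 3. These are matches of letters, and they say nothing of binding in these cells. The 228 bases shared by Hadha and Hadhb, which lie head to head and encode both subunits of the mitochondrial trifunctional protein, held none of the 5 motifs.

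The libraries held 12738059 to 19081219 reads on genes, of which 49813 to 69445 fell on the 34 genes, and the least covered of the 34 had 150 to 237 reads per library. Levels are given as CPM, the count scaled to 1e6 reads in a library, after scaling by the trimmed mean of M values (TMM), which sets the bulk of genes equal between libraries. Differences are log2 fold changes, urolithin A over DMSO, from limma voom fitted to the 14444 genes that passed the filter, and a gene is called higher or lower where its p, adjusted by Benjamini-Hochberg over all of them, is under 0.05. The ribosomal RNA gene Rn18s took 17.6% of the reads of DMSO library b and 3.97% of urolithin A library a, against 0.0687% to 0.887% elsewhere. T cell markers summed to 2432 to 2631 CPM in urolithin A libraries and 2498 to 2616 CPM in DMSO libraries. Of the 9, 3 were called, Cd247 higher (adjusted p = 0.00181) and Lck and Thy1 lower (adjusted p = 0.0220 and 0.0020). That is 11.1% higher and 22.2% lower, where 17.7% of all genes tested were called higher and 16% lower, so these shares were not far from those of all genes. Of the B cell markers, 4 of 8 were called higher, where 17.7% of all genes tested were, with sums of 207 to 251 CPM under urolithin A and 164 to 180 CPM under DMSO. That count was 2 without library b of urolithin A or without DMSO library a or b, and 1 of 7 tested without both libraries highest in Rn18s. Myeloid markers summed to 13.1 to 15.4 CPM under urolithin A and 6.61 to 8.70 CPM under DMSO, and the defining Lyz2 and Csf1r did not exceed 0.510 and 0.208 CPM in any library. Mpeg1, a macrophage-expressed gene on that list, averaged 7.55 ± 0.690 CPM under urolithin A and 2.36 ± 0.0730 CPM under DMSO (adjusted p = 8.42e-06) and kept its call in all 17 alternatives. Natural killer markers summed to 45.8 to 53.9 CPM under urolithin A and 38.5 to 42.4 CPM under DMSO. Of 3 tested, 1 was called higher, Klrd1 (adjusted p = 0.0258), and none without DMSO library a or b. The sum was mostly Klrd1 and Eomes. Klrd1 averaged 23.0 CPM under urolithin A and 16.2 CPM under DMSO, and Eomes 25.2 and 22.8 CPM. Eomes and Klrb1c were not called (adjusted p = 0.302 and 0.593). Klrb1c had only 17 to 28 reads per library and Ncr1 1 to 11. A larger share of natural killer cells under urolithin A therefore cannot be read from the sum. The part of B, myeloid and natural killer cells in the results that follow was not tested. In such bulk RNA a smaller share of cells that carry a transcript cannot be told apart from less transcript per cell.

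In urolithin A cells, the beta-oxidation genes that passed the test mostly rose relative to DMSO cells and the pyruvate and TCA genes that passed all fell. Of the 17 beta-oxidation genes, 4 rose (23.5%), 1 fell (5.88%) and 12 did not pass. Of the 16 pyruvate and TCA genes, 5 fell (31.25%), none rose and 11 did not pass. Over all genes tested, 17.7% were called higher and 16% lower, so the share of beta-oxidation genes that rose was near that of all genes. Total count scaling gave 2237 higher and 932 lower in place of 2560 and 2311. It called 3 beta-oxidation genes higher. The median log2 fold change was 0.16 over the beta-oxidation genes and -0.15 over the pyruvate and TCA genes, beside 0.01 over all genes tested. Leaving out 1 library at a time, the beta-oxidation median ranged from 0.0857, without library a of urolithin A, to 0.165, and the pyruvate and TCA genes called lower from 2, without DMSO library b or c, to 7, without library c of urolithin A, with 3 without its library a. The beta-oxidation gene that fell was not called without library a of urolithin A or any 1 DMSO library. Every change was small: among the 10 genes called, the largest was the 1.32-fold rise of Eci2. The 3 urolithin A libraries all lay above the 3 DMSO libraries in 8 beta-oxidation genes and no pyruvate or TCA gene, where 24.1% of all genes tested did so. They all lay below in 1 beta-oxidation gene and 7 pyruvate and TCA genes, where 22.7% of all genes tested did so.

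**Figure D1:**
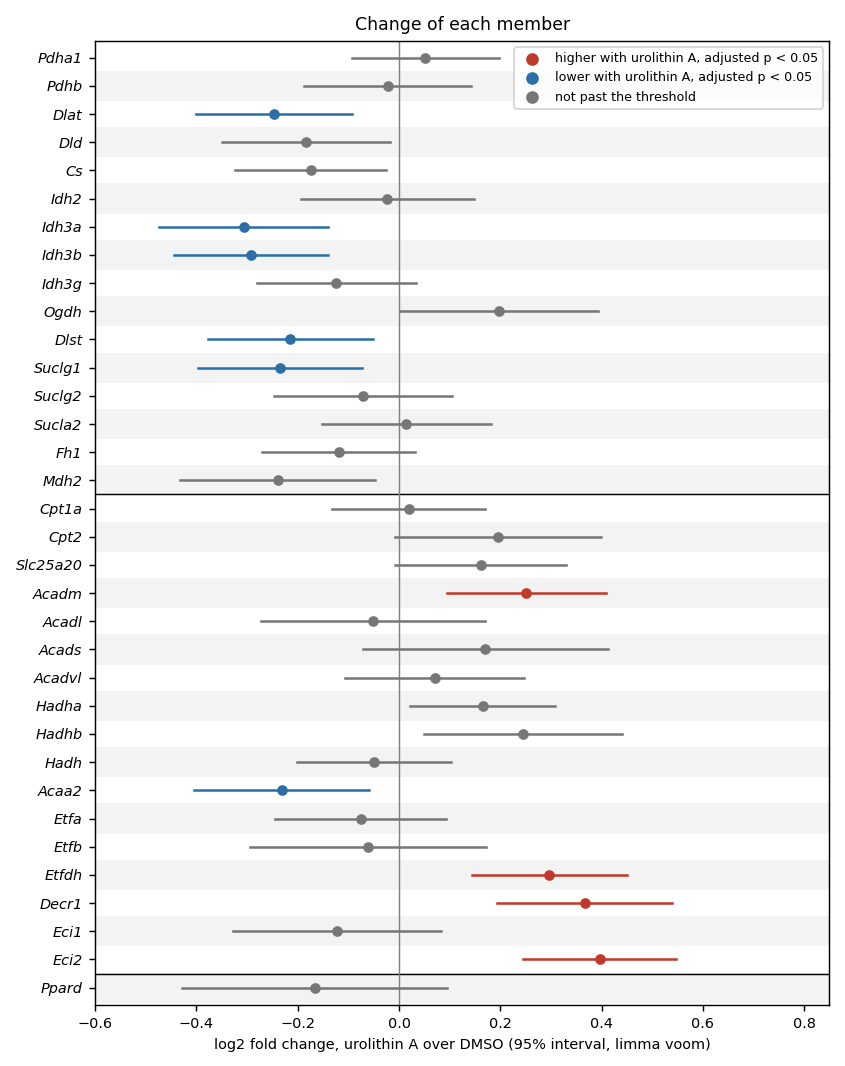
Log2 fold change, urolithin A over DMSO, of each of the 34 genes with its 95% interval, in the order pyruvate and TCA, beta-oxidation and Ppard; red (higher) and blue (lower) points passed an adjusted p of 0.05 and grey points did not. Eci2 stands highest at 0.40 and Idh3a lowest at -0.31.

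The complex that admits pyruvate had 1 member that fell. Dlat, its acetyltransferase core (E2), had 88.4, 86.2 and 90.6 CPM in libraries a, b and c of the urolithin A group, against 99.6, 108 and 107 CPM in those of the DMSO group. The groups did not overlap, and Dlat fell by 0.25 ± 0.07 (SE) on the log2 scale (adjusted p = 0.0161). The E1 subunit genes, whose products decarboxylate pyruvate, were close to level: Pdha1 averaged 221 ± 10.6 CPM under urolithin A and 213 ± 1.08 CPM under DMSO (SD, n = 3 each, as below; adjusted p = 0.592). Pdhb averaged 61.8 ± 3.94 CPM under urolithin A and 62.5 ± 0.0640 CPM under DMSO (adjusted p = 0.849). Dld, the E3 dehydrogenase that other complexes share, averaged 118 ± 5.56 CPM under urolithin A and 134 ± 9.80 CPM under DMSO, and did not pass (log2 fold change -0.18 ± 0.08, adjusted p = 0.0821). The call of Dlat was lost without DMSO library b or c (adjusted p = 0.0646 and 0.0625), and Dld passed without DMSO library a or library b of urolithin A (adjusted p = 0.0442 and 0.0217).

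In the first steps of the cycle, subunits of NAD-dependent isocitrate dehydrogenase fell. Idh3a, its catalytic subunit (ENSMUSG00000032279, chromosome 9, 54493618 to 54511945 in the table's coordinates, whose build is not named and is not that of the promoters), had 104, 110 and 113 CPM in urolithin A libraries, against 123, 137 and 145 CPM in DMSO libraries. All 3 treated libraries were below all 3 controls, a fall of 0.31 ± 0.08 in log2 (adjusted p = 0.00715). Idh3b, a regulatory subunit whose promoter is printed above (ENSMUSG00000027406, chromosome 2, 130121229 to 130126467), had 155, 143 and 161 CPM under urolithin A and 189, 181 and 190 CPM under DMSO, again with no overlap. It fell by 0.29 ± 0.07 in log2 (adjusted p = 0.0056). Idh3g, the third subunit, averaged 130 ± 8.29 CPM under urolithin A and 141 ± 4.78 CPM under DMSO, and its libraries overlapped (adjusted p = 0.214). Idh2, the NADP-dependent mitochondrial enzyme, was level at 105 ± 9.51 CPM under urolithin A and 106 ± 3.15 CPM under DMSO (adjusted p = 0.848). Cs, citrate synthase, had 415, 378 and 437 CPM under urolithin A and 465, 461 and 459 CPM under DMSO. Its groups did not overlap either, but its log2 fold change of -0.17 ± 0.07 did not pass (adjusted p = 0.0687). Without library c of urolithin A the adjusted p of Cs was 0.0377.

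In the oxoglutarate dehydrogenase complex the subunits went apart. Dlst, the succinyltransferase core (E2), had 173, 155 and 184 CPM in urolithin A libraries, against 198, 203 and 192 CPM in DMSO libraries, and fell by 0.21 ± 0.08 in log2 (adjusted p = 0.0419). This was the least stable call of the arm, lost without any single library but c of urolithin A (adjusted p = 0.0721 to 0.124). Ogdh, the E1 subunit that decarboxylates oxoglutarate, had 192, 159 and 210 CPM under urolithin A and 163, 167 and 156 CPM under DMSO. Urolithin A libraries a and c exceeded every control and library b did not, so the groups overlapped and the log2 fold change of 0.20 ± 0.09 missed the threshold (adjusted p = 0.111). Without library b of urolithin A, Ogdh had a log2 fold change of 0.31 and an adjusted p of 3.67e-04. The ratio of Dlst to Ogdh, which needs no scaling between libraries, averaged -0.12 ± 0.08 in log2 under urolithin A and 0.29 ± 0.01 under DMSO, with all treated libraries below all controls. Dlat to Pdha1 stood at -1.32 ± 0.04 under urolithin A and -1.02 ± 0.06 under DMSO, likewise with no overlap, so both lipoylated E2 genes were lower relative to an E1 gene of their own complex. Both pairs were picked after their values were seen.

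Further round the cycle, Suclg1, the shared alpha subunit of succinyl-CoA ligase, had 112, 107 and 125 CPM under urolithin A and 131, 138 and 134 CPM under DMSO, and fell by 0.24 ± 0.08 in log2 with no overlap (adjusted p = 0.0265). Its beta subunit genes did not pass: Sucla2, of the ADP-forming enzyme, averaged 111 ± 4.63 CPM under urolithin A and 110 ± 8.62 CPM under DMSO (adjusted p = 0.902). Suclg2, of the GDP-forming enzyme, averaged 40.8 ± 1.98 CPM under urolithin A and 42.9 ± 1.70 CPM under DMSO (adjusted p = 0.541). Fh1, fumarase, did not pass (log2 fold change -0.12, adjusted p = 0.216). Mdh2, mitochondrial malate dehydrogenase, had 162, 142 and 187 CPM under urolithin A and 193, 198 and 183 CPM under DMSO, and narrowly missed the threshold (log2 fold change -0.24 ± 0.09, adjusted p = 0.0534). Only library c of urolithin A reached the range of the controls, and without it Mdh2 passed (adjusted p = 0.0071). Suclg1 lost its call without library a of urolithin A or any DMSO library (adjusted p = 0.0508 to 0.0890).

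Library c of urolithin A was the highest of its group in 14 of the 16 pyruvate and TCA genes, and library b was the lowest in 11 and library a in 5. The median coefficient of variation over these genes was 6.14% among urolithin A libraries and 3.17% among DMSO libraries. The 5 calls depend on the scaling: with libraries scaled to total counts, which Rn18s enters, none of the 16 was called. Without the libraries highest in Rn18s, DMSO b and urolithin A a, which leaves 2 in each group, none was called, at a median log2 fold change of -0.13. The direction of the median held in every alternative tried.

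**Figure D2:**
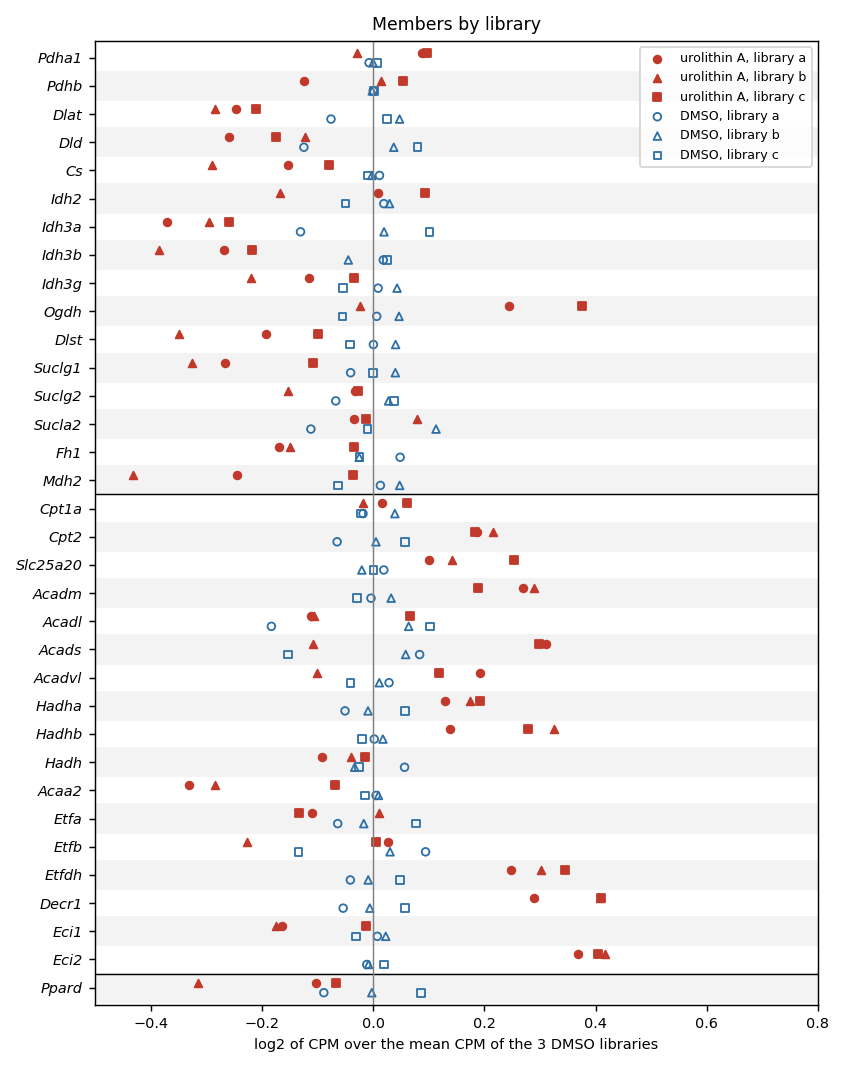
CPM of each of the 34 genes in each library, relative to the mean of the DMSO libraries on a log2 scale, with urolithin A libraries as filled red and DMSO libraries as open blue markers, 1 shape per letter. Eci2, Decr1 and Etfdh separate to the higher side and Idh3a, Idh3b and Dlat to the lower side.

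Fatty acids enter through the carnitine shuttle, none of whose 3 genes was called. Cpt1a, the outer membrane carnitine palmitoyltransferase that controls entry, had 86.7, 84.7 and 89.4 CPM in urolithin A libraries and 84.7, 88.1 and 84.5 CPM in DMSO libraries. The groups overlapped fully, and the 95% interval of its log2 fold change ran from -0.13 to 0.17 (adjusted p = 0.858). The inner membrane partners, the carrier Slc25a20 and the transferase Cpt2, were above every control in all treated libraries without passing. Cpt2 averaged 21.2 ± 0.251 CPM under urolithin A and 18.5 ± 0.782 CPM under DMSO (log2 fold change 0.20 ± 0.10, adjusted p = 0.130). Slc25a20 averaged 51.5 ± 2.82 CPM under urolithin A and 45.9 ± 0.628 CPM under DMSO (adjusted p = 0.132).

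Of the acyl-CoA dehydrogenases, which take the first electrons from fatty acids of different lengths, the medium-chain gene rose. Acadm (ENSMUSG00000062908, chromosome 3, 153627994 to 153650269) had 74.1, 75.1 and 70.1 CPM under urolithin A and 61.3, 62.9 and 60.3 CPM under DMSO. It stood 1.19-fold higher without overlap (log2 fold change 0.25 ± 0.07, adjusted p = 0.0162), a call lost without library a of urolithin A or any DMSO library (adjusted p = 0.0509 to 0.0677). The very-long-chain gene Acadvl had 127, 104 and 121 CPM under urolithin A and 113, 112 and 108 CPM under DMSO (adjusted p = 0.547). The long-chain gene Acadl, at 24.9 ± 1.78 CPM under urolithin A and 25.7 ± 2.68 CPM under DMSO, did not pass either (adjusted p = 0.739). Acads, the short-chain gene, had 67.8, 50.7 and 67.2 CPM under urolithin A and 57.9, 56.9 and 49.1 CPM under DMSO, so library b again sat apart from its group (adjusted p = 0.266). Without that library the adjusted p of Acads was 0.00205.

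The middle and final steps of the spiral were mixed. Hadha, the trifunctional protein's hydratase and dehydrogenase subunit, had 243, 251 and 254 CPM under urolithin A and 215, 221 and 232 CPM under DMSO (log2 fold change 0.17 ± 0.07, adjusted p = 0.0710). Hadhb, its thiolase subunit, had 27.2, 31.0 and 30.0 CPM under urolithin A and 24.8, 25.0 and 24.4 CPM under DMSO (log2 fold change 0.24 ± 0.09, adjusted p = 0.0516). Neither passed, although both had every treated library above every control, and Hadhb passed in 4 of 17 alternatives, 1 of them without library a of urolithin A (adjusted p = 0.0442), and Hadha in 3, 1 of them without library b (adjusted p = 0.0475). The log2 ratio of Hadhb to Hadha overlapped between the groups, at -3.09 ± 0.07 under urolithin A and -3.17 ± 0.07 under DMSO. Hadh, the dehydrogenase for shorter chains, was level at 96.3 ± 2.62 CPM under urolithin A and 99.6 ± 3.46 CPM under DMSO (adjusted p = 0.628). Acaa2, the matrix thiolase, was the 1 beta-oxidation gene that fell. It had 74.2, 76.7 and 89.1 CPM under urolithin A and 93.7, 94.0 and 92.4 CPM under DMSO, a log2 fold change of -0.23 ± 0.08 (adjusted p = 0.0384). That call was lost in 7 of 17 alternatives, among them leaving out any 1 DMSO library or library a of urolithin A (adjusted p = 0.0838 to 0.163).

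Electrons leave the dehydrogenases through the electron transfer flavoprotein, made from Etfa and Etfb, and pass to ubiquinone through Etfdh, the flavoprotein's own dehydrogenase in the inner membrane. Etfdh (ENSMUSG00000027809, chromosome 3, 79511095 to 79536807) had 103, 107 and 110 CPM under urolithin A and 84.4, 86.3 and 89.8 CPM under DMSO. It rose 1.23-fold with clear separation (log2 fold change 0.30 ± 0.07, adjusted p = 0.00499). Etfa averaged 59.8 ± 3.22 CPM under urolithin A and 63.1 ± 3.16 CPM under DMSO, and did not pass (adjusted p = 0.491). Etfb averaged 19.6 ± 1.85 CPM under urolithin A and 20.4 ± 1.64 CPM under DMSO (adjusted p = 0.704). The ratio of Etfdh to Etfa was 0.84 ± 0.09 in log2 under urolithin A and 0.46 ± 0.03 under DMSO, without overlap. That pair sets a called gene against one not called, so its separation is not a result apart from the call of Etfdh.

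The clearest rises were in auxiliary enzymes, which let unsaturated fatty acids through the spiral. Eci2, an enoyl-CoA isomerase that moves double bonds (ENSMUSG00000021417, chromosome 13, 35161731 to 35211079), had 89.3, 92.3 and 91.5 CPM in urolithin A libraries and 68.6, 68.7 and 70.1 CPM in DMSO libraries. The gap between the groups was far wider than the SD of either, 1.56 CPM under urolithin A and 0.825 CPM under DMSO, and the log2 fold change was 0.40 ± 0.07 (adjusted p = 5.83e-04). Decr1, the dienoyl-CoA reductase (ENSMUSG00000028223, chromosome 4, 15917240 to 15945507), had 50.2, 54.5 and 54.6 CPM under urolithin A and 39.6, 40.9 and 42.8 CPM under DMSO. It rose 1.29-fold (log2 fold change 0.37 ± 0.08, adjusted p = 0.00277). Eci1, another enoyl-CoA isomerase gene, did not follow: it had 19.0, 18.9 and 21.1 CPM under urolithin A and 21.4, 21.6 and 20.8 CPM under DMSO (log2 fold change -0.12 ± 0.10, adjusted p = 0.357). Whether Eci2 protein acts in mitochondria or in peroxisomes cannot be read from RNA. The log2 ratio of Eci2 to Eci1 averaged 2.21 ± 0.09 under urolithin A and 1.70 ± 0.04 under DMSO. It likewise sets a called gene against one not called. Of other such pairs, Idh3a to Idh3g and Acadm to Acadl overlapped between the groups. Idh3b to Idh3g and Suclg1 to Sucla2 were lower in all urolithin A libraries. Eci2 and Decr1 kept their calls in all 17 alternatives, and Etfdh in 16, the exception being the removal of both libraries highest in Rn18s (adjusted p = 0.0754). Eci2 has a close paralogue, Eci3, and the counting of reads shared between such copies was not stated.

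Ppard, the nuclear receptor PPAR delta, which drives beta-oxidation genes in muscle, had 11.0, 9.52 and 11.3 CPM under urolithin A and 11.1, 11.8 and 12.6 CPM under DMSO. The groups overlapped and it did not pass (log2 fold change -0.17 ± 0.12, adjusted p = 0.322).

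Summed over their members, the 2 arms moved apart. The beta-oxidation genes totalled 1229, 1219 and 1277 CPM in urolithin A libraries and 1137, 1149 and 1150 CPM in DMSO libraries. Pyruvate and TCA genes totalled 2315, 2179 and 2465 CPM under urolithin A and 2505, 2569 and 2522 CPM under DMSO. Both sums separated the groups, upward for beta-oxidation and downward for the pyruvate and TCA genes. Within a library the ratio of the sums does not depend on scaling, and it was 0.531, 0.560 and 0.518 under urolithin A and 0.454, 0.447 and 0.456 under DMSO. A sum leans on its most abundant members, but the medians differed too: beta-oxidation minus pyruvate and TCA was 0.31 in log2, and 0.23 to 0.31 over the alternatives. No p is given for these sums, since the genes were chosen with results known.

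**Figure D3:**
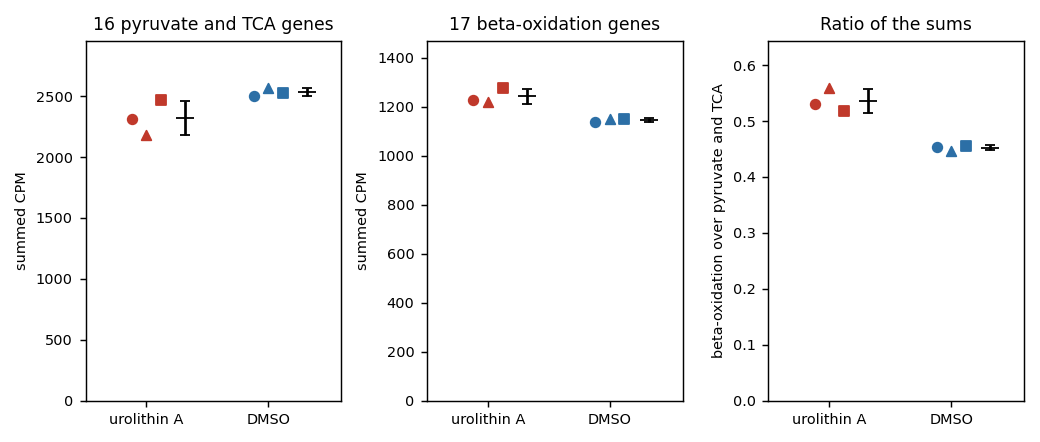
Summed CPM of the 16 pyruvate and TCA genes and of the 17 beta-oxidation genes in each library, and the ratio of beta-oxidation to pyruvate and TCA sums; urolithin A libraries (red) stand left of DMSO libraries (blue), marker shapes stand for libraries a, b and c, and black bars give mean and SD (n = 3 each). The ratio lies between 0.518 and 0.560 under urolithin A and between 0.447 and 0.456 under DMSO.

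Set against exon length, so that genes can be ranked, the 34 levels spanned a wide range in both groups. Lengths came from the GENCODE M21 exons, and the levels are approximate because the annotation used for counting was not stated. Citrate synthase, Cs, was highest at 70.9 ± 5.17 CPM per kb under urolithin A and 79.8 ± 0.581 CPM per kb under DMSO. Pdha1 followed at 59.2 ± 2.83 CPM per kb under urolithin A and 57.0 ± 0.290 under DMSO. Acaa2 stood at 52.8 ± 5.25 CPM per kb under urolithin A and 61.6 ± 0.553 under DMSO. Pdha1 and Acaa2 overlapped in level under urolithin A, where their order was the reverse of that under DMSO. Most beta-oxidation genes lay lower, with Cpt1a at 11.4 ± 0.312 CPM per kb under urolithin A and 11.2 ± 0.267 under DMSO. Hadhb stood at 4.46 ± 0.297 and Hadha at 28.6 ± 0.649 CPM per kb under urolithin A, beside 3.75 ± 0.0488 and 25.5 ± 0.970 under DMSO, although their products join in one complex. Ppard was lowest at 1.41 ± 0.128 CPM per kb under urolithin A and 1.58 ± 0.0954 under DMSO.

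**Figure D4:**
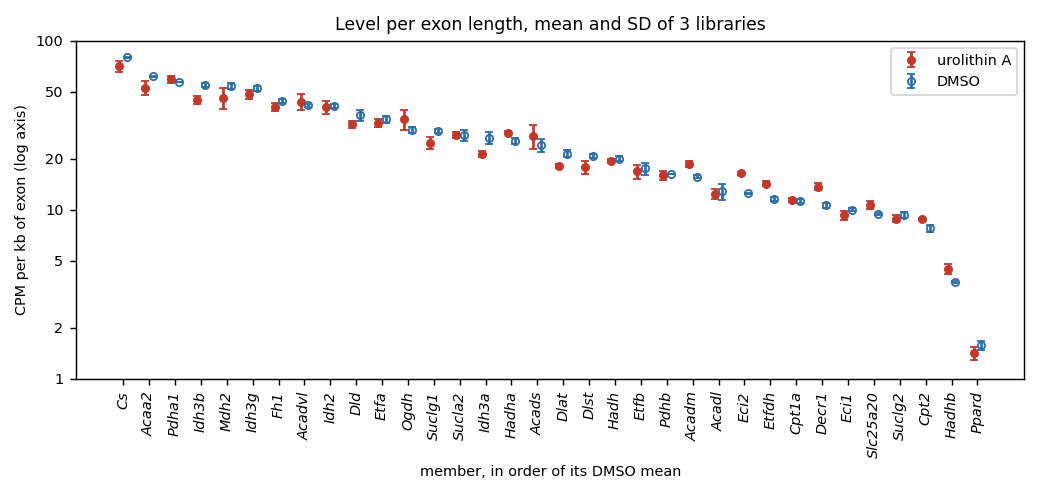
Mean level of the 34 genes in CPM per kb of exon on a log axis, with urolithin A and DMSO as separate points and SD as bars (n = 3 each), ordered by the DMSO mean. Cs is highest and Ppard lowest in both groups.

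Neighbouring pathways, from lists drawn up alongside the 34 genes, were read from the same fit. In that fit 17.7% of all genes tested were called higher and 16% lower. Under total count scaling, 2237 of the 14444 genes were called higher and 932 lower. With that scaling, calls were 9 higher and 0 lower of 24 other mitochondrial beta-oxidation and acyl-CoA genes. Calls were 4 and 0 of 13 for peroxisomal beta-oxidation, 0 and 1 of 11 for fatty acid uptake and 0 and 2 of 10 for pyruvate entry. For other TCA genes they were 3 and 0 of 11, and for PPAR and ERR genes 1 and 4 of 13. In the main fit, 11 of the 24 other mitochondrial beta-oxidation and acyl-CoA genes rose (45.8%) and 2 fell (8.33%), with a median log2 fold change of 0.23. Cpt1c, a brain-type relative of Cpt1a, averaged 8.30 ± 0.596 CPM under urolithin A and 1.72 ± 0.390 CPM under DMSO (fold 4.88, adjusted p = 1.71e-06). Acad11, a dehydrogenase of long and hydroxylated acyl chains, rose 1.70-fold (adjusted p = 2.3e-05), and Etfbkmt, which methylates Etfb protein, 1.55-fold (adjusted p = 7.28e-04). Not all of this list belongs to the fatty acid spiral: Ivd and Mmut, both called higher, serve the breakdown of other acyl groups. Its counts and median are thus not those of the spiral alone. The 2 that fell were Echs1, the short-chain hydratase (log2 fold change -0.28, adjusted p = 0.0118), and Hsd17b10, a dehydrogenase that also serves mitochondrial RNase P (log2 fold change -0.28, adjusted p = 0.0288). Without the libraries highest in Rn18s, 7 of this list rose and none fell. Echs1 was not called without library a of urolithin A, nor Hsd17b10 without that library or DMSO library a or c.

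Peroxisomal beta-oxidation, which shortens very long and branched chains, had 5 of 13 tested genes higher (38.5%) and none lower, at a median of 0.22. Acox3, a branched-chain oxidase, averaged 48.8 ± 4.15 CPM under urolithin A and 30.2 ± 3.33 CPM under DMSO (adjusted p = 1.02e-04). Scp2, a thiolase and lipid carrier, rose by 0.45 in log2 (adjusted p = 8.48e-04), and Crot, which makes carnitine esters for export to mitochondria, rose by 0.36 (adjusted p = 0.00384). Most of the called genes for uptake and activation of fatty acids went the other way, with 1 of 11 tested genes higher (9.09%) and 4 lower (36.4%). The most abundant of that list, the synthetases Acsl5 and Acsl4, were not called. Acsl5 averaged 354 ± 29.3 CPM under urolithin A and 354 ± 7.16 CPM under DMSO (adjusted p = 0.991). Acsl4 averaged 228 ± 7.66 and 220 ± 11.8 CPM (adjusted p = 0.577). Fabp5, a cytosolic fatty acid carrier, averaged 17.9 ± 1.93 CPM under urolithin A and 35.7 ± 0.619 CPM under DMSO, a fold of 0.496 (adjusted p = 2.73e-06). The acyl-CoA synthetase Acsl1 fell by 0.41 and the transport protein Slc27a4 by 0.33 in log2 (adjusted p = 0.00618 and 0.0114). Acss1, which activates acetate, rose by 0.25 (adjusted p = 0.0456), a call kept in 6 of 17 alternatives. Without the libraries high in Rn18s, 1 uptake gene fell and none rose, and 3 peroxisomal genes rose. Slc27a4 also lost its call without DMSO library b, and Acss1 without any 1 library.

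Several genes that feed carbon into the cycle, or control its entry in either direction, fell. Pcx, pyruvate carboxylase, which replenishes oxaloacetate, had 34.4, 26.1 and 31.1 CPM under urolithin A and 72.5, 64.0 and 61.7 CPM under DMSO (fold 0.461, adjusted p = 1.92e-06). Pdk1, a kinase that switches pyruvate dehydrogenase off, averaged 225 ± 22.0 CPM under urolithin A and 316 ± 16.3 CPM under DMSO (adjusted p = 2.60e-04). Pdp1, a phosphatase that switches the same complex on, fell by 0.34 in log2 (adjusted p = 0.0236), a call lost without library b of urolithin A or DMSO library b or c. These were the 3 that fell of 10 pyruvate entry and control genes tested (30%), and none rose. For glutamine and aspartate entry, 3 of 10 fell (30%) and none rose. Of all genes tested, 16% fell and 17.7% rose. Gpt2, which turns glutamate-derived nitrogen and pyruvate into alanine and oxoglutarate, had 13.4, 10.1 and 10.9 CPM under urolithin A and 33.0, 37.1 and 34.6 CPM under DMSO (fold 0.330, adjusted p = 1.56e-07). The glutamine transporter Slc1a5 and the glutaminase Gls2 fell by 0.53 and 0.65 in log2 (adjusted p = 3.00e-04 and 3.10e-04).

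Of 8 cytosolic counterparts and exporters tested, 3 fell (37.5%) and 1 rose (12.5%), but under total count scaling 1 fell and none rose. Malic enzyme Me2 averaged 354 ± 37.6 CPM under urolithin A and 512 ± 21.0 CPM under DMSO (adjusted p = 1.21e-04). Acly, which splits exported citrate to acetyl-CoA, averaged 626 ± 56.1 CPM under urolithin A and 830 ± 28.1 CPM under DMSO (adjusted p = 6.94e-04), and was not called under total count scaling (adjusted p = 0.0745). The dicarboxylate carrier Slc25a10 fell by 0.35 and cytosolic malate dehydrogenase, Mdh1, rose by 0.24 in log2 (adjusted p = 0.0282 and 0.0160). Neither was called without DMSO library a or b, nor Slc25a10 without library b of urolithin A. Mdh1 thus differed in sign from Mdh2, its mitochondrial relative, whose log2 fold change of -0.24 had not passed. Me2 protein is itself mitochondrial and was listed here for its substrate.

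Among 11 other TCA cycle genes, 3 rose (27.3%) and 1 fell (9.09%), where 17.7% of all genes tested rose and 16% fell. In a list this short, these shares are not far from those of all genes. Ogdhl, a relative of Ogdh, had 6.92, 6.12 and 6.86 CPM under urolithin A and 2.15, 2.02 and 2.12 CPM under DMSO (fold 3.12, adjusted p = 1.11e-05). The succinate dehydrogenase assembly factors Sdhaf2 and Sdhaf4 rose by 0.33 and 0.48 in log2 (adjusted p = 0.00477 and 0.00917), while Sdhb, the enzyme's iron-sulphur subunit, fell by 0.20 (adjusted p = 0.0426), a call kept in 10 of 17 alternatives and lost without library a of urolithin A or any DMSO library. Sdhaf4 was not called without DMSO library a. Of 9 genes for lipoylation and related dehydrogenase complexes, 1 rose (11.1%) and 2 fell (22.2%), shares near those of all genes tested. Gcsh, a lipoyl carrier protein of glycine cleavage, fell by 0.60 in log2 (adjusted p = 9.87e-04), and Lipt2, which loads the octanoyl precursor of lipoate, by 0.91 (adjusted p = 0.0109), at only 1.85 ± 0.346 CPM under urolithin A and 3.46 ± 0.823 CPM under DMSO, and the call of Lipt2 was lost without library a of either group. Ppm1k, the phosphatase that activates branched-chain ketoacid dehydrogenase, rose 1.79-fold (adjusted p = 3.47e-06).

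Regulators and targets of the PPAR and oestrogen-related receptors mostly fell where they were called, with 6 of 13 tested lower (46.2%) and 2 higher (15.4%). Pparg, at the edge of detection, had 0.677, 0.907 and 0.603 CPM under urolithin A and 2.32, 1.88 and 1.96 CPM under DMSO (adjusted p = 0.00143). Angptl4, a lipase inhibitor and classic PPAR target, fell to 0.525 of the DMSO level (adjusted p = 2.73e-05). Nrf1, which encodes the activator named for the motif above, averaged 87.8 ± 5.46 CPM under urolithin A and 123 ± 2.00 CPM under DMSO (adjusted p = 1.37e-04). Lpin1, a phosphatidate phosphatase and co-activator, rose 1.68-fold, with 142, 144 and 147 CPM under urolithin A and 84.4, 90.5 and 83.0 CPM under DMSO (adjusted p = 1.90e-06). Prkaa1, a catalytic subunit of AMP-activated kinase, rose by 0.27 in log2 (adjusted p = 0.0139), a call lost without library a of urolithin A or DMSO library a or b. Without the libraries high in Rn18s, 4 of this list fell and 1 rose.

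**Figure D5:**
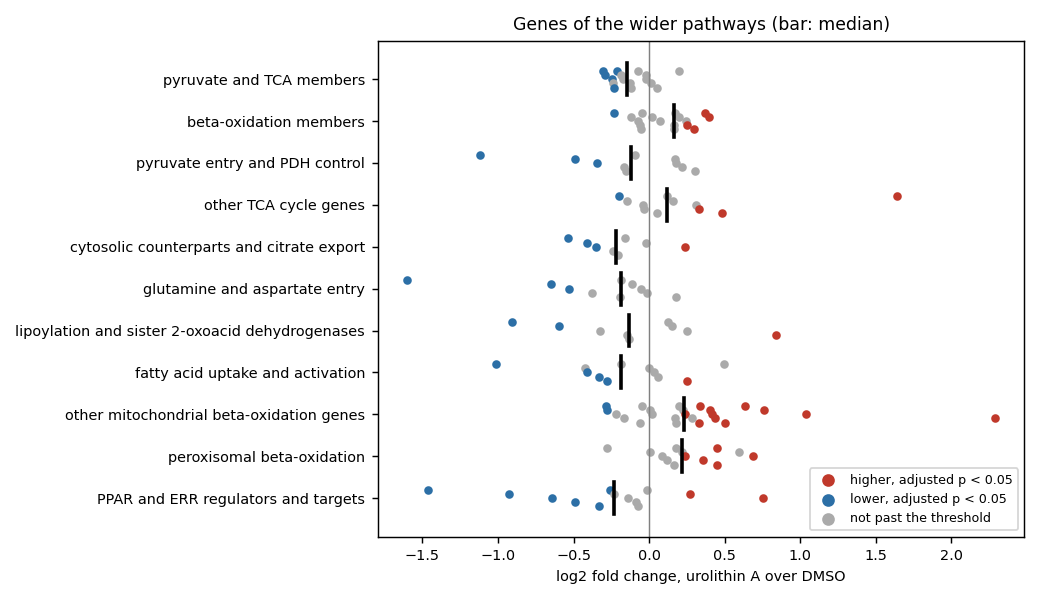
Log2 fold change, urolithin A over DMSO, of the tested genes in the pyruvate and TCA arm, the beta-oxidation arm and 9 neighbouring lists, 1 point per gene, with genes called higher in red, genes called lower in blue, the rest in grey, and a bar at each list's median. Medians lie at 0.23 for other mitochondrial beta-oxidation and acyl-CoA genes, at 0.22 for peroxisomal beta-oxidation, and at -0.23 for PPAR and ERR regulators and targets.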

How the data were processed

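Gene-level values were available for 6 libraries, 3 of urolithin A and 3 of DMSO cells. Per the submitters' processing notes, bcl2fastq 2.20.0.422, FastQC, STAR 2.5.2a, DESeq2 and mm10 were used; the counter, its use of strand, the annotation and the build of the table's coordinates are not named in those notes or the labels. The deposited values, whose unit is recorded as other, are whole numbers with a decimal comma, and were treated as read counts per gene. Since they were not recorded as counts, neither edgeR nor DESeq2 was run. Libraries were scaled by TMM (own code), genes with 10 reads' worth of CPM in 3 libraries and at least 15 reads in all were kept (14444 of 18828), and log2 fold changes came from limma 3.58.1 voom with robust moderation in R 4.3.3. The labels do not say whether library letters pair the samples, and the letters were not a term in the main fit. Another 3 columns matched no labelled sample and were not used. All 34 genes are named. From each neighbouring list, up to 3 called genes per direction with the smallest p are given with values, and others are named only to show what a list holds. Genes and lists were chosen with earlier results of these data known. The fitting code was tested on simulated data.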

Additional observations from a re-analysis of the deposited data

How the results depend on the processing

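Over 17 alternatives for each of the 34 genes, 508 results kept their direction and side of the threshold, 36 lost the call, 17 gained it and 17, all of genes not called, changed sign. Total count scaling, which moved the median of all genes by 0.09 in log2, gave 0 beta-oxidation genes and 0 pyruvate and TCA genes lower, and medians of 0.253 for beta-oxidation and -0.0591 for pyruvate and TCA genes. There Pdhb (0.0688), Idh2 (0.0672), Suclg2 (0.0185), Acadl (0.0396), Hadh (0.0411), Etfa (0.0135) and Etfb (0.0273) turned positive. Sample quality weights called 1 pyruvate or TCA gene higher, and gave 0.0117 for Idh2 and -0.0370 for Sucla2; 3044 genes in all were called higher and 2821 lower. Without the libraries highest in Rn18s (DMSO b, urolithin A a), 2 beta-oxidation genes were higher and 0 lower, 0 pyruvate and TCA genes were lower, and the beta-oxidation median was 0.109; Pdhb stood at 0.0186 and Acadvl at -0.00063, and 1330 genes were called higher and 1192 lower. Leaving out each library in turn, beta-oxidation calls ranged from 3 to 6 higher and 0 to 1 lower, pyruvate and TCA calls from 0 to 1 higher and 2 to 7 lower, and the beta-oxidation median from 0.0857 to 0.165. The log2 fold changes that changed sign there ranged from -0.0508 to 0.0272 for Pdhb, -0.0722 to 0.0546 for Idh2, -0.0403 to 0.0522 for Sucla2, -0.132 to 0.0292 for Etfb, -0.142 to 0.00791 for Acadl. With the library letter as a replicate block, 4 beta-oxidation genes were higher and 0 lower and 4 pyruvate and TCA genes lower. Same-lettered libraries correlated at 0.0725, -0.126 and -0.0833, and libraries of unlike letters at -0.293 to 0.311. So few libraries cannot show whether the letters mark a pairing. Median-of-ratios scaling, no filter, a stricter filter, other log offsets, non-robust moderation and removal of ribosomal RNA genes left 5 pyruvate and TCA genes lower. Dlst kept its call in 9 of 17 alternatives, Acaa2 in 10, Suclg1 and Acadm in 11, Dlat in 13, and Idh3a and Idh3b in 15. The planned DESeq2 alternative was not run.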
